A study of Homo sapiens with 36 samples.

Results

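TXNL1 is a thioredoxin-like protein that binds the proteasome. The response to hydrogen peroxide (H2O2) of cells that lack it was read from 6 mRNA libraries. Of these, 3 are of *TXNL1* KO HEK-293T cells given H2O2 and 3 of the same cells labeled DMSO, called untreated here. They are the 6 libraries of 36 whose labels give the vector line with H2O2 or DMSO. The methods give DMSO or water as the solvent of stocks, without naming that of H2O2. HEK-293T is a human embryonic kidney line that carries the SV40 large T antigen, a viral protein that binds p53. By the study's methods, the KO was made by CRISPR editing and grown out as isogenic clones from single sorted cells, the labels name 1 KO line, and cells were treated for 6 h with 600 µM H2O2 in six-well plates in triplicate. All 6 libraries carry the KO and an empty vector. The other 30 libraries are of the same KO line given arsenite (100 µM for 6 h, 3 libraries) or re-expressing TXNL1-WT, TXNL1-DR-RD (D162R R234D, a mutant of the proteasome-binding face) or TXNL1-SxxS (a mutant of the thioredoxin active site), each untreated or with H2O2 or arsenite. The labels do not say that the 3 replicates were grown as separate cultures, so the p-values measure the spread between these libraries, which may be in part technical.

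H2O2 oxidizes the thiols of cysteines and, with iron, damages DNA. Peroxiredoxins, glutathione peroxidases and catalase remove it, and the transcription factor NRF2 induces many of the genes that supply glutathione and thioredoxin. DNA damage acts through p53, which induces the CDK inhibitor p21 and other genes, and through the checkpoint kinases, which delay entry into mitosis. Stress kinases that phosphorylate eIF2α raise the translation of ATF4, which induces genes for amino acid synthesis and uptake. In bulk RNA, fewer cells of a cell cycle phase and less RNA per cell cannot be told apart.

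Total counts were 53581560 to 59983836 per untreated library and 46490964 to 52146237 per H2O2 library. *TXNL1* RNA was still counted in the KO line. It measured 32.3, 32.1 and 29.1 CPM (read counts scaled to library size) untreated and 31.8, 31.0 and 32.6 CPM with H2O2, so the groups overlapped (log2 fold change 0.03, adjusted p = 0.81). With all 36 libraries on 1 scale, the 3 complemented lines averaged 53.4 to 62.9 CPM untreated, against 30.6 ± 1.77 CPM in the vector line (SD, n = 3). RNA counts do not show whether the protein is absent. All 8 markers of the HEK293 line passed the filter on counts, which is a low one. Untreated, *NEFM* and *PAX2* averaged only 0.13 and 0.19 CPM, and the others from 1.51 (*LHX1*) to 475 CPM (*VIM*). Of 14 markers of blood, liver, connective tissue, vessel, glial and heart cells, 6 passed. Of the 8 below the filter *HBB* was at 0 in all 6 libraries, *CD3E*, *CDH5* and *MYH6* were at 0 untreated with 2, 6 and 4 counts over the H2O2 libraries, and *PTPRC*, *LYZ*, *ALB* and *PECAM1* had 2, 3, 2 and 2 counts untreated and 7, 50, 16 and 9 with H2O2. Of the 50 counts of *LYZ*, 48 were in H2O2 replicate 2. The summed level of the 6 that passed was 30.8 to 33.9 CPM untreated and 30.7 to 45.3 CPM with H2O2, and 0 of them were called by edgeR's quasi-likelihood test or DESeq2 (0 at an unadjusted p under 0.05).

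Transcripts of gut and pancreas genes were present in some libraries and not in others. The summed counts of 10 such genes, chosen after the values were seen, were 3, 0 and 0 in the untreated libraries and 0, 1190 and 119 in H2O2 replicates 1, 2 and 3. *MUC12*, an intestinal mucin, had 301 counts in replicate 2 and 32 in replicate 3, and *CEACAM5* had 251 and 22, against 0 in the other 4 libraries for each. Libraries of other groups held them too, with 962 counts in replicate 3 of untreated TXNL1-WT, 450 in replicate 1 of TXNL1-SxxS with H2O2 and 339 in replicate 1 of untreated TXNL1-DR-RD. Their part in the results was not tested, but the main counts below are given without H2O2 replicate 2, and the closing section gives it without replicates 2 and 3.

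H2O2 changed the RNA of many genes by small amounts. Of 22486 genes tested, 2808 (12.5%) passed an adjusted p of 0.05 and are called changed. The test was the quasi-likelihood test of edgeR, with p-values adjusted by Benjamini-Hochberg over all tested genes. They comprise 1433 genes that rose (6.37%) and 1375 that fell (6.11%). The median log2 fold change was 0.22 among those that rose and -0.21 among those that fell. Only 29 that rose and 47 that fell reached a log2 change of 1, and 75 genes passed a test against a fold change of 1.2 rather than against no change. The 3 H2O2 values lay outside the range of the 3 untreated values for 2765 of the called genes, but also for 6703 of all genes tested (29.8%). Calls depended on the level of the gene. Of genes under 1 CPM 1.15% were called, and of genes over 100 CPM 30.4%.

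The count of calls rested on the close agreement of the 6 libraries, in which the typical spread of a gene between replicates (the biological coefficient of variation) was 4.86%. Without H2O2 replicate 2, 1959 genes were called, of which 1797 were among the 2808 and moved the same way. Leaving out untreated replicate 1, 2 or 3 gave 1686, 1632 and 1829. In a fit that shared 1 spread over all 36 libraries the coefficient was 12.4% and only 303 genes (1.35%) were called, 300 of them shared (0.712% of all genes tested were higher and 0.636% lower). A pair of TXNL1-WT libraries widens that spread. Their SD around the group median was 0.612 (H2O2 replicate 2) and 0.535 (arsenite replicate 1) on the log2 scale, against 0.0666 to 0.175 in the other libraries, and without them the shared fit called 2219 genes.

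**Figure D1:**
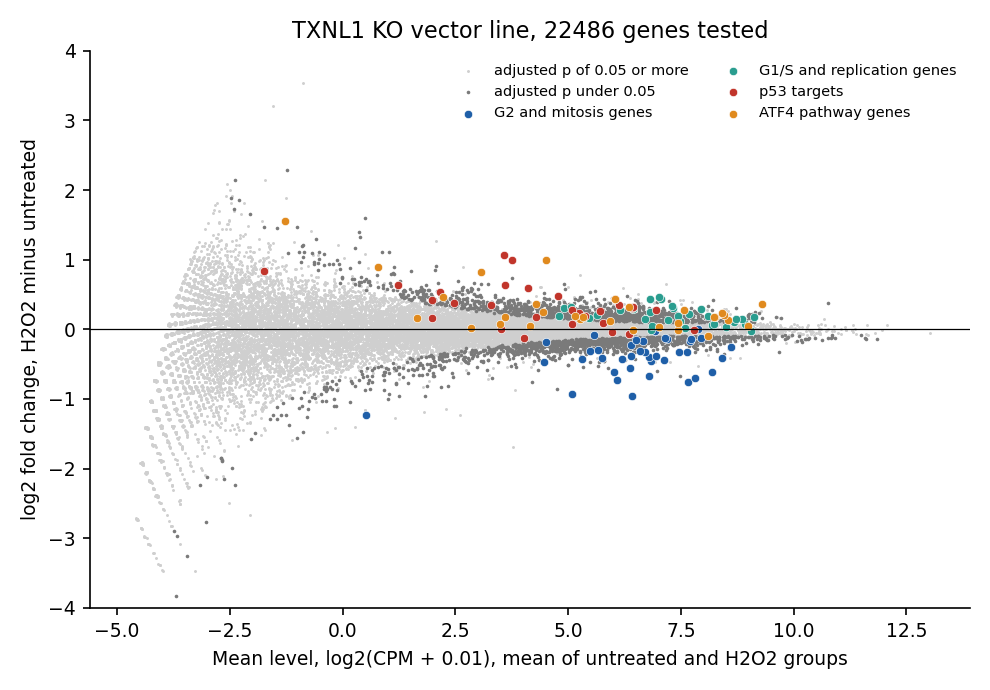
Log2 fold change with H2O2 (y axis) against mean level (x axis, log2 of CPM + 0.01) for the genes tested in the vector line, with dark grey for genes called changed and colors for 4 gene lists. Blue points, the G2 and mitosis genes, sit at or below 0, while most p53 targets (red), G1/S genes (green) and ATF4 pathway genes (orange) sit above it. Uncalled genes of low level spread widely, and 19 genes lie outside the range shown.

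The genes with the strongest evidence of change were mostly genes of mitosis, and all fell. The 10 called genes with the smallest p were *KIF20A*, *CDC20*, *PLK1*, *CCNB1*, *AURKA*, *DEPDC1*, *PSRC1*, *HMMR*, *TPX2* and *DLGAP5*. *KIF20A* (chr5:138178719-138187723, plus strand, GRCh38), a kinesin needed for cytokinesis, measured 117, 110.1 and 111 CPM untreated and 56.8, 56.3 and 60.7 CPM with H2O2. All 3 H2O2 libraries lay near 58 CPM, far below the lowest untreated one (log2 fold change -0.96 ± 0.04 SE, adjusted p = 1.109e-11). *CDC20* (chr1:43358981-43363203, plus strand), which activates the ubiquitin ligase that ends mitosis, fell from 281, 279 and 276 CPM to 170.4, 168 and 175 CPM (-0.70, adjusted p = 1.109e-11). The groups did not overlap. *PLK1*, a kinase that drives entry into mitosis, measured 259, 254 and 252 CPM against 147, 144 and 160.4 CPM (-0.76, adjusted p = 6.294e-11). *CCNB1*, which encodes cyclin B1, the partner of CDK1, measured 360, 353 and 341 CPM against 229, 230.0 and 228 CPM (-0.62, adjusted p = 6.294e-11). For both genes every H2O2 library lay below every untreated one. *AURKA*, the Aurora A kinase of the spindle poles, fell by 0.67 and its activator *TPX2* fell by 0.41 on the log2 scale.

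Of the 40 genes in a list of G2 and mitosis genes, all were tested and 35 fell, against 6.11% of all genes tested. The other 5, *MKI67*, *CDC25B*, *KIF20B*, *CDK1* and *CKAP2*, did not pass. The median log2 fold change was -0.36, against -0.01 over all genes tested, and the range ran from -1.23 to -0.0025. The members' summed level was 5644 to 5698 CPM in untreated libraries and 4404 to 4470 CPM with H2O2. The largest fall was that of *PIF1*, a DNA helicase, from 1.63, 2.19 and 2.20 CPM to 1.13, 0.775 and 0.653 CPM (-1.23, adjusted p = 6.712e-04), groups that did not overlap. *PSRC1*, a microtubule-binding protein of the spindle, was next to *KIF20A* in size, at 44.1, 45.1 and 44.1 CPM untreated and 21.4, 23.9 and 24.4 CPM with H2O2 (-0.93). *CENPE*, the kinesin of the kinetochore, measured 78.2, 80.9 and 74.7 CPM against 56.4, 48.7 and 47.4 CPM (-0.62). *MKI67*, which did not pass, measured 235, 266 and 267 CPM against 220.2, 261 and 219.9 CPM, and its groups overlapped. Without H2O2 replicate 2, 34 members fell, and with the spread shared over 36 libraries 20 did.

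Many mitotic genes are known to share promoter elements, a CCAAT box and the cell cycle genes homology region (CHR), through which the DREAM complex and its relatives act. RefSeq promoters (GRCh38.p14) of the called members were therefore searched on both strands in the 250 bases before the annotated start. Of the 35 that fell, 29 had a promoter in the table. CCAAT was found in 24 of these 29 (82.8%), against 34.6% of 12960 promoters of tested genes and 33.0% of all 27305. The CHR was searched as TTTGAA and, as a variant of it, as TTCGAA. It was found in 16 of the 29 (55.2%), against 10.2% and 14.6%. A match shows only that the letters are there, and the 2 motifs do not overlap in the stretches shown. The members come from a list of known mitotic genes and were not compared with members that were not called. The shares therefore describe the list and cannot be tied to the response to H2O2. The last 120 bases before the start are given for the 4 genes of smallest p that hold a CCAAT box there, at chr5:138178992-138179111 for *KIF20A*, chr1:43358861-43358980 for *CDC20*, chr16:23678769-23678888 for *PLK1* and chr5:69167030-69167149 for *CCNB1*, all on the plus strand. Capitals mark the CCAAT box, on either strand, and the CHR.
KIF20A: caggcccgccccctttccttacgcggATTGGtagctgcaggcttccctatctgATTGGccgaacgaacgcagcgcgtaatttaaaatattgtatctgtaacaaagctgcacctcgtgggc
CDC20: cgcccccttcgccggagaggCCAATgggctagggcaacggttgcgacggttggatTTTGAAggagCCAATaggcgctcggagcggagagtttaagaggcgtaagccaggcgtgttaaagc
PLK1: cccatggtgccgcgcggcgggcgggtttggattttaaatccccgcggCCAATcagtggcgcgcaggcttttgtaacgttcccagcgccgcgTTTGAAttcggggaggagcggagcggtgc
CCNB1: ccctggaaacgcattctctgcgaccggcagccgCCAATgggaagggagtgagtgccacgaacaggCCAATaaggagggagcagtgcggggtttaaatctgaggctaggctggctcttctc
*CDC20* and *PLK1* hold both motifs. *KIF20A* and *CCNB1* hold 2 CCAAT boxes each and no CHR letters within these 120 bases.

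**Figure D2:**
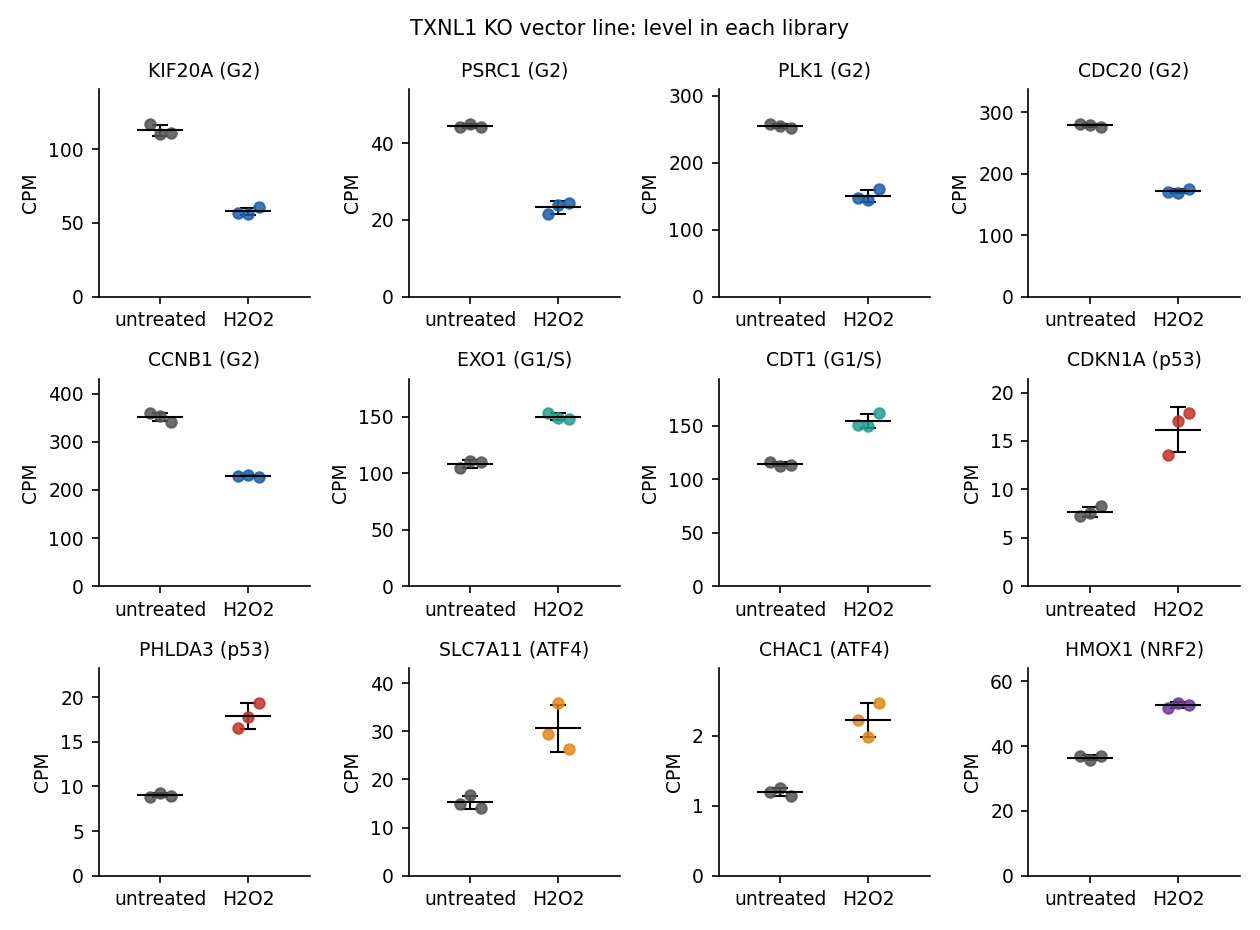
Level in CPM (y axis, from 0) of 12 genes in each library of the vector line, with a point for each library, a horizontal bar at the mean and error bars of 1 SD (n = 3 per group). For all 12 genes the H2O2 points lie wholly above or wholly below the untreated points, with the mitotic genes below and the others above. The 12 were picked from called genes, of which 2765 of 2808 do not overlap, against 29.8% of all genes tested.

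Genes of the G1/S transition and of DNA replication rose at the same time. Of 32 tested, 24 rose, against 6.37% of all genes tested, and the median was 0.18. *EXO1*, an exonuclease of mismatch repair and DNA end resection, rose from 104, 111 and 109.9 CPM to 153, 149 and 148 CPM (0.47 ± 0.03, adjusted p = 3.669e-08). *CLSPN*, which encodes claspin, the adaptor of the CHK1 checkpoint kinase, measured 92.3, 97.5 and 98.8 CPM against 138, 129 and 124 CPM (0.44, adjusted p = 7.452e-07). *CDT1*, which loads the MCM helicase at origins, measured 116, 112 and 114 CPM against 151, 150.2 and 161.8 CPM (0.44). In all 3 genes the groups were well apart. *PCNA*, the sliding clamp of replication, rose by less, from 219.8 to 228 CPM untreated to 269 to 276 CPM (0.28, adjusted p = 4.568e-06), and *BRCA1*, which is in no list and was chosen after its values were seen, rose with a log2 fold change of 0.48 (adjusted p = 1.17e-07). Among the 8 members that did not pass were *MCM2*, *MCM5*, *MCM6*, *MCM7*, *CDC45*, *UNG* and *GINS2*. The count was 23 without H2O2 replicate 2 and 5 in the 36-library fit. Of 34 replication-dependent histone genes with enough counts, whose mRNAs lack a poly(A) tail, only *H1-4* was called, as lower (all genes, 6.11%). It measured 0.940, 0.667 and 0.746 CPM against 0.165, 0.452 and 0.230 CPM, a fall of less than 1 CPM. Its call was lost in 2 of 22 alternative settings.

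Letters recognized by E2F factors, known regulators of G1/S genes, were searched in the same way (TTTCCCGC, TTTGGCGC or TTTCGCGC). Of the 24 members that rose, 20 had a promoter in the table and 7 of these (35%) held a match, against 3.67% of tested promoters and 2.38% of all. Here too members that were not called were not compared, so the share describes the list. The 3 of smallest p with a match in the last 120 bases were *CDT1* (chr16:88803669-88803788, plus strand), *PCNA* (chr20:5126623-5126742, minus strand) and *CDC25A* (chr3:48188418-48188537, minus strand), with the match in capitals.
CDT1: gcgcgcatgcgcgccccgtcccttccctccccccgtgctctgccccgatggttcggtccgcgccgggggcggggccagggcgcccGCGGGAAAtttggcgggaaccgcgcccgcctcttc
PCNA: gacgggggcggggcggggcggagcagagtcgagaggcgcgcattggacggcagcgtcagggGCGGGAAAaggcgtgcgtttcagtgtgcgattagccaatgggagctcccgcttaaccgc
CDC25A: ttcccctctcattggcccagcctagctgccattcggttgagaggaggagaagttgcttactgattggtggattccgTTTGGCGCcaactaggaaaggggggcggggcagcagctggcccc
*CDT1* and *PCNA* carry the same 8 letters on the opposite strand to the one searched first, and *CDC25A* carries another of the 3 forms.

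Targets of p53 rose. Of 29 targets tested, 19 rose (all genes, 6.37%), and the median was 0.31. *CDKN1A*, which encodes p21, measured 7.22, 7.61 and 8.27 CPM untreated and 13.6, 17.1 and 17.9 CPM with H2O2 (1.07 ± 0.09, adjusted p = 7.452e-07). *PHLDA3*, an inhibitor of AKT signaling, measured 8.83, 9.27 and 8.90 CPM against 16.6, 17.8 and 19.4 CPM (0.99, adjusted p = 3.669e-08). The lowest H2O2 library lay above the highest untreated one by more than 5 CPM in both genes. *GADD45A*, a growth arrest and DNA damage gene, rose from 8.32, 9.13 and 10.9 CPM to 14.1, 14.9 and 14.9 CPM (0.63). *MDM2*, which encodes the ubiquitin ligase of p53, rose from 108 to 113 CPM to 130.0 to 139 CPM (0.28, adjusted p = 3.444e-05). *BTG2*, an antiproliferative gene, rose with a log2 fold change of 0.59, and the apoptosis genes *FAS*, *BBC3* and *PMAIP1* with 0.42, 0.35 and 0.33. *BAX*, the pore-forming apoptosis protein, was among the 10 that did not pass. It measured 82.7, 81.9 and 86.5 CPM against 75.0, 75.9 and 87.3 CPM, and its groups overlapped. When H2O2 replicate 2 was left out 17 targets rose, and in the 36-library fit 9 did. Exons of *CDKN1A* and *PHLDA3* overlap those of *DINOL* and of an unnamed gene, and whether strand was used in counting is not given in the sources used here, so the reads of such partners cannot be told apart.

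Genes of the ATF4 pathway also rose. Of 31 tested, 17 rose and 1 fell (all genes, 6.37% and 6.11%), with a median of 0.18. *ATF4* itself rose from 568, 550.0 and 527 CPM to 699, 716 and 705 CPM (0.37 ± 0.03, adjusted p = 1.81e-07). *SLC7A11*, the antiporter that imports cystine for glutathione synthesis and that is also counted among the NRF2 targets, rose from 14.95, 16.7 and 14.03 CPM to 29.5, 35.9 and 26.3 CPM (1.00 ± 0.12, adjusted p = 0.001316). Every H2O2 library stood well above every untreated one for both genes. *CHAC1*, which degrades glutathione, rose from 1.19, 1.25 and 1.14 CPM to 2.22, 1.98 and 2.48 CPM (0.90), and *SLC6A9*, a glycine transporter, from 6.495, 5.63 and 6.08 CPM to 10.2, 9.88 and 12.2 CPM (0.83). *ADM2*, a peptide hormone gene, had the largest log2 fold change of the list (1.55, adjusted p = 0.01363), at under 1 CPM in every library. *ASNS*, asparagine synthetase, rose from 169 to 176 CPM to 202 to 211 CPM (0.27). *SHMT2*, the mitochondrial serine hydroxymethyltransferase, was the member that fell (-0.10). Another known target, *DDIT3*, which encodes CHOP, did not pass. There were 16 rises without H2O2 replicate 2 and 8 in the 36-library fit. TGATGNAA, the core letters of the element bound by C/EBP and ATF4 dimers, was searched in the 15 members that rose and had a promoter. Only *ASNS* and *CHAC1* (13.3%) held it, against 1.46% of tested promoters and 3.19% of all. Members that were not called were not compared. In *ASNS* the match stands 68 to 61 bases before the start (chr7:97872409-97872528, minus strand), in capitals below.
ASNS: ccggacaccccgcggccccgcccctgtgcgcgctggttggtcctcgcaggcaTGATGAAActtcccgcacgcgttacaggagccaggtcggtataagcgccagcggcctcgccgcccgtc

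NRF2 targets and the enzymes that remove peroxide moved less. Of 26 NRF2 targets tested, 5 rose (all genes, 6.37%), and the median was 0.06. They were *SLC7A11*, *HMOX1*, *GCLM*, *SQSTM1* and *GCLC*. *HMOX1*, heme oxygenase 1, measured 36.9, 35.6 and 36.9 CPM untreated and 51.7, 53.4 and 52.8 CPM with H2O2 (0.53 ± 0.04, adjusted p = 1.316e-07). *GCLM*, the modifier subunit of glutamate-cysteine ligase, rose from 48.9, 50.3 and 50.0 CPM to 58.2, 59.4 and 59.2 CPM (0.24). These groups were apart in every library, and the rise of *GCLM* was the smaller. *TXNRD1*, cytosolic thioredoxin reductase, *NQO1*, a quinone reductase, and *SRXN1*, sulfiredoxin, were chosen after their values were seen and did not pass. *TXNRD1* measured 241, 243 and 246 CPM against 261, 254 and 255 CPM (0.08, adjusted p = 0.11), *NQO1* 6.58, 6.79 and 7.18 CPM against 6.46, 6.76 and 5.97 CPM, and *SRXN1* 40.3, 38.8 and 39.1 CPM against 43.3, 40.9 and 38.4 CPM. Only the *TXNRD1* groups did not overlap. The count stayed at 5 without H2O2 replicate 2 and was 2 in the 36-library fit.

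Of 26 peroxide-removing and thiol-repair enzymes tested, 6 fell (all genes, 6.11%) and the median was -0.03. The median transcript length in this list was 1804.5 bases. Among protein-coding genes of at least 1 CPM with transcripts of 72 to 2230 bases, 397 of 2544 fell. That share is a nearer background for a list of short transcripts. *GPX1*, a glutathione peroxidase, fell from 239, 238 and 235 CPM to 199, 201 and 203 CPM (-0.24 ± 0.03, adjusted p = 2.736e-05). *PRDX3*, the mitochondrial peroxiredoxin, fell from 312, 303 and 295 CPM to 277, 275 and 270.2 CPM (-0.15). Both genes were lower in every H2O2 library. *CAT*, catalase, fell by 0.16 on the log2 scale (adjusted p = 0.048), but its call was lost in 13 of 23 alternative settings, and that of *TXNRD2* in 12 of 22. The other members that fell were *TXNRD2*, *PRDX4* and *PRDX5*. The count was 4 without H2O2 replicate 2, 2 with an offset for transcript length and 0 in the 36-library fit with edgeR (2 at an unadjusted p under 0.05), while DESeq2 on the 6 libraries also called 6 lower. Of 16 genes that repair oxidized bases and strand breaks, 4 fell, among them *NTHL1*, *MPG* and *PARP1*, and *FEN1*, which is also a replication gene, rose (0.19), against 6.11% and 6.37% of all genes. With the length offset 1 fell.

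Proteasome subunits were examined because TXNL1 binds this complex. Of 32 tested, 9 fell, by at most 0.20 on the log2 scale (all genes, 6.11%), and the median was -0.07. Of the 2398 genes over 100 CPM 398 fell, which is a nearer background for abundant genes such as these. *PSMD8*, a subunit of the regulatory particle lid, measured 258, 262 and 253 CPM untreated and 226, 226 and 224 CPM with H2O2 (-0.20 ± 0.03, adjusted p = 2.249e-04). *PSMA2*, of the outer ring of the core particle, measured 178, 171 and 179.7 CPM against 149.9, 161 and 157 CPM (-0.18), and *PSMB6*, which carries a catalytic site, 132, 132 and 130.3 CPM against 115, 119 and 117 CPM (-0.17). These groups did not overlap. *PSMD14*, the deubiquitinase of the lid, and *PSMD1*, a scaffold of the regulatory particle, both chosen after their values were seen, were not called (0.04 and 0.03). The summed level of the 32 was 5878 to 6011 CPM untreated and 5640 to 5710 CPM with H2O2. In the 36-library fit 0 of the 32 were called by edgeR (1 at an unadjusted p under 0.05), while DESeq2 on the 6 libraries called 10 lower. The count was 8 without H2O2 replicate 2. *PITHD1*, which like TXNL1 has a PITH domain, rose from 54.6, 56.0 and 53.5 CPM to 65.1, 61.2 and 61.7 CPM (0.20 ± 0.04, adjusted p = 0.003469), groups that did not overlap.

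Among other stress genes the changes were few, and the counts are to be read against 6.37% of all genes tested that rose and 6.11% that fell. Of 24 cytosolic heat shock genes, 3 rose (*CHORDC1*, *HSPH1* and *AHSA1*, by at most 0.17 on the log2 scale) and *DNAJB1*, an HSP40 co-chaperone, fell (-0.18). *DNAJB1* measured 339, 325 and 356 CPM against 293, 291 and 317 CPM, and the groups did not overlap. Of 21 endoplasmic reticulum chaperones and folding genes, *SDF2L1*, *HYOU1*, *PDIA4* and *MANF* fell and *DNAJC3* rose, a call lost in 12 of 23 alternative settings. Of 5 metallothionein and zinc export genes with enough counts, 3 rose, led by *MT2A* at 13.8, 12.9 and 13.1 CPM against 15.5, 18.5 and 17.4 CPM (0.37). Of 13 NF-κB targets 3 rose. *RELB*, an NF-κB subunit of the noncanonical pathway, rose from 1.48, 1.49 and 1.66 CPM to 3.15, 2.17 and 3.27 CPM (0.90, adjusted p = 0.001416), *IRF1* rose with a log2 fold change of 0.39 and *NFKB2* with 0.32. *NFKBIA*, a target of the canonical pathway, did not pass (0.05).

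Of 27 immediate early genes, 6 rose, and the median was 0.16. Of all genes tested 6.37% rose and 6.11% fell, which is the background for every list in this paragraph. *FOS* measured 0.621, 0.940 and 0.635 CPM against 1.13, 1.55 and 1.04 CPM (0.75, adjusted p = 0.04049), and *FOSL1* 2.72, 2.36 and 3.38 CPM against 4.12, 4.05 and 4.96 CPM (0.64). *FOSB*, *NR4A1*, *ATF3* and *MYC* rose with 0.56, 0.46, 0.30 and 0.12. The groups did not overlap for *FOS* and *FOSL1*, but both are at a few CPM. Of 23 cholesterol synthesis and uptake genes 6 fell, led by *LSS*, lanosterol synthase, from 82.0, 78.0 and 80.9 CPM to 65.7, 64.4 and 68.1 CPM (-0.28). Of 12 iron handling genes, *HMOX1* rose, while *TFRC*, the transferrin receptor, fell from 322, 316 and 320.1 CPM to 264, 286 and 275 CPM (-0.22, adjusted p = 1.808e-04), as did *STEAP3*, a ferrireductase (-0.16). Of 24 hypoxia and glycolysis genes 4 rose, with the largest change in *SLC2A3*, a glucose transporter (0.34). Of 15 SRF and YAP targets edgeR and DESeq2 called 0, with 4 at an unadjusted p under 0.05 in edgeR. Of the 8 HEK293 markers, *NEFL* (0.46) and *VIM* (0.20) rose.

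**Figure D3:**
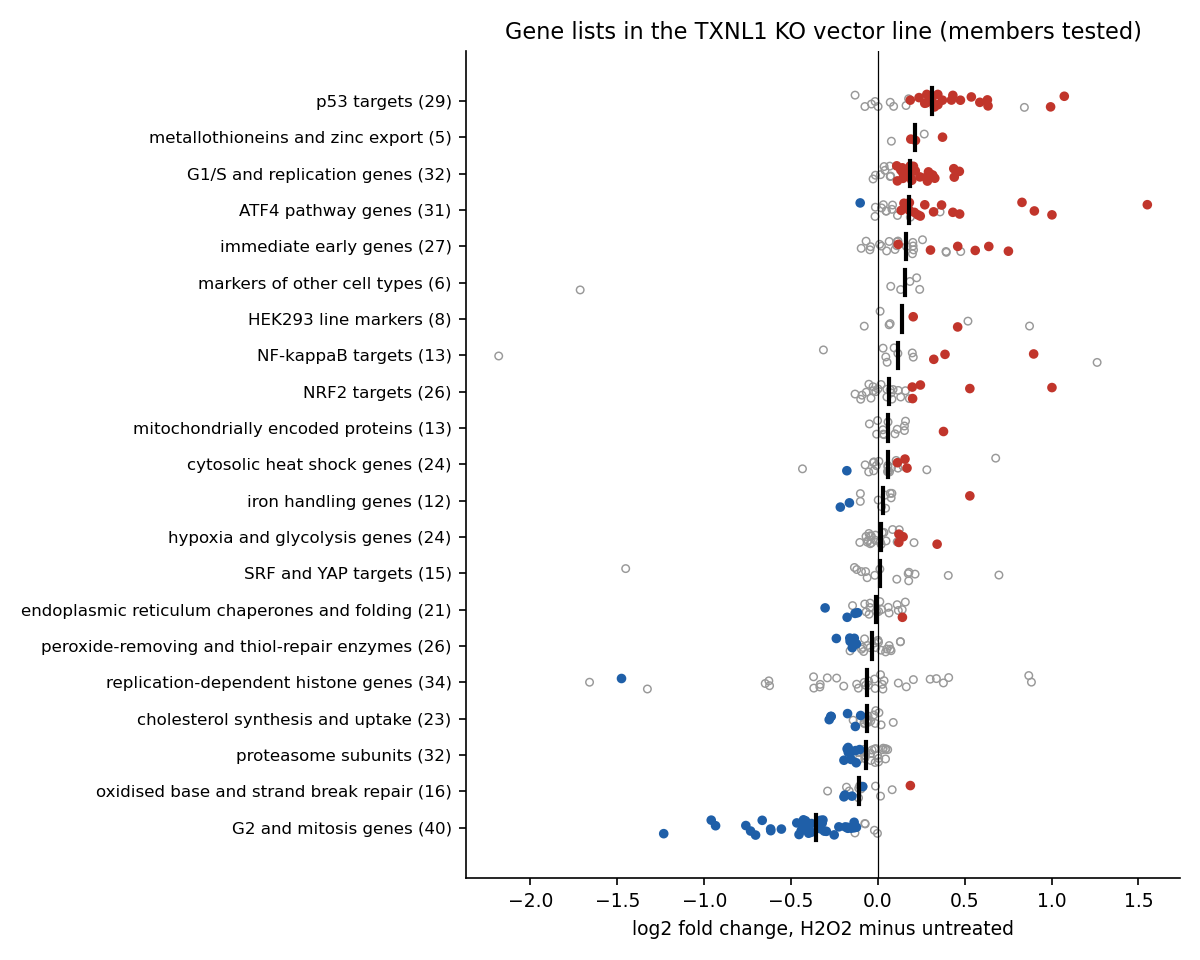
Log2 fold change with H2O2 in the vector line (x axis) of the tested members of 21 gene lists (rows, number of members in brackets), with filled points for called members (red higher, blue lower), open points for the others and a black bar at each list's median. The G2 and mitosis list lies apart to the left at a median of -0.36, and the p53 targets have the highest median, 0.31. Some genes stand in more than 1 list.

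Changes were ranked by size among called genes whose groups did not overlap and whose higher group averaged at least 2 CPM. Outside the lists, the largest rise in this ranking was that of *AHNAK2*, a giant scaffold protein gene, from 0.621, 0.650 and 0.821 CPM to 2.04, 2.73 and 1.58 CPM (1.60 ± 0.22, adjusted p = 7.87e-05). *NES*, which encodes the intermediate filament protein nestin, rose from 3.14, 2.57 and 3.12 CPM to 5.76, 4.71 and 5.42 CPM (0.85), and *OPRD1*, the δ-opioid receptor gene, from 1.86, 2.27 and 1.98 CPM to 3.46, 3.44 and 4.05 CPM (0.84). The H2O2 libraries were higher throughout for all 3. *SYNE3*, a nuclear envelope protein gene, and *TEX19* rose with 0.79 and 0.80. The other 4 of the 15 largest rises were of pseudogenes (*ZNG1DP*, *NPEPPSP1*, *MTX1P1* and *TATDN2P2*), whose reads cannot be told from those of their parent genes with certainty. A pair of them had adjusted p-values just under the threshold, *ZNG1DP* at 0.04981 and *MTX1P1* at 0.04357.

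In the same ranking, the largest falls after *PIF1* were of *ENSG00000236255*, a lncRNA, and *HMMR-AS1*, which lies antisense to the mitotic gene *HMMR*. *HMMR-AS1* measured 4.63, 4.86 and 4.46 CPM against 2.49, 2.58 and 2.09 CPM (-0.96), and *HMMR* 83.6, 86.7 and 83.0 CPM against 55.2, 49.8 and 47.5 CPM (-0.73), so the pair fell together. *ERN2* (-0.92) overlaps *PLK1* in the same manner, and neither pair can be separated without strand. *MALAT1*, a nuclear lncRNA, fell from 35.9, 33.5 and 34.9 CPM to 23.1, 18.7 and 16.1 CPM (-0.85 ± 0.11, adjusted p = 0.002951). *GOLGA8B* (-0.81), *CPT1B* (-0.79), *ZNF594* (-0.95), *FOXD4* (-0.87), *THAP2* (-0.78) and the lncRNAs *ENSG00000272256* (-0.83) and *ENSG00000272512* (-0.77) complete the list with *MT-TC*. From the mitochondrial genome, *MT-TC*, a transfer RNA gene, fell from 6.53, 6.12 and 6.57 CPM to 4.12, 3.12 and 3.67 CPM (-0.82), whereas *MT-CO1*, a subunit of cytochrome c oxidase, rose from 1583, 1436 and 1503 CPM to 2104, 1850.0 and 1920.0 CPM (0.38, adjusted p = 0.00223). *MT-CO1* was the 1 member called of 13 mitochondrially encoded protein genes, a share near that of all genes tested that rose (6.37%).

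The direction of change varied with transcript length. Among 12718 protein-coding genes of at least 1 CPM, Spearman's correlation across genes between log2 fold change and annotated transcript length was 0.33, with GC content -0.13 and with the genomic span 0.25. These genes share the same libraries and are not independent replicates. In the fifth of genes with the shortest transcripts 80 rose and 397 fell, and in the fifth with the longest 582 rose and 79 fell. With an offset for length in each library 2458 genes were called, and the lists for G2 and mitosis (35 fell), G1/S (24 rose), p53 (18 rose) and ATF4 (18 rose) differed from the values above by at most 1 member, while the NRF2 count was 8.

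**Figure D4:**
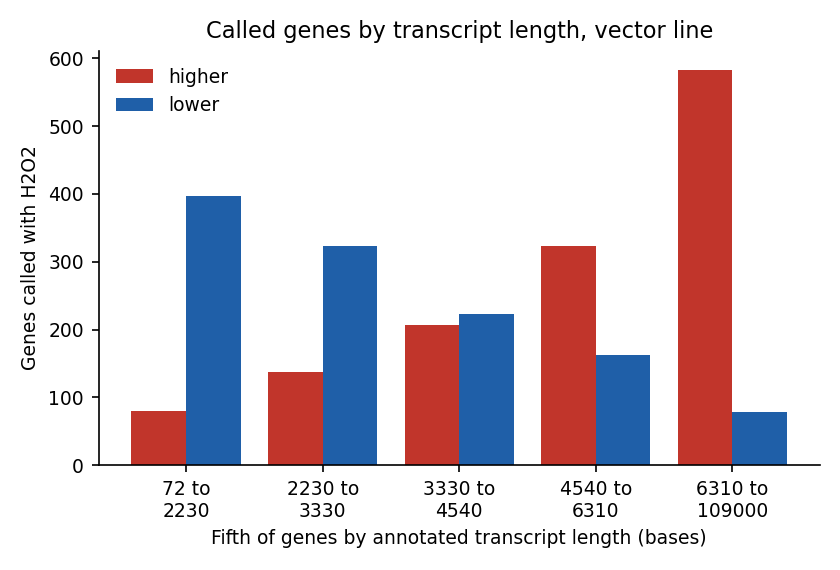
Number of protein-coding genes called higher (red) or lower (blue) with H2O2 in the vector line (y axis) in 5 equal groups by annotated transcript length in bases (x axis). Falls outnumber rises among short transcripts (397 against 80) and rises outnumber falls among long ones (582 against 79).

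Whether the response is particular to cells without TXNL1 was asked with the 18 untreated and H2O2 libraries of the complemented lines, which share no library with the vector line. Averaged over the 3 lines, 1262 genes (5.61%) were called. Of the 1433 genes that rose in the vector line, 86.5% had the same sign and 331 were called, which is 23.1% of these and 45.6% of the genes that rose in the other lines (3.23% of all genes tested rose there and 2.38% fell). Of the 1375 that fell, 76.5% had the same sign and 324 were called (23.6% and 60.4%). Over all genes tested, 62.2% had the same sign. The median log2 fold change of the genes that rose was 0.22 in the vector line and 0.10 in the complemented lines, and of those that fell -0.21 and -0.09, but these genes were chosen by their change in the vector line. Without H2O2 replicate 2 of TXNL1-WT, the library that stands apart, 3844 genes (17.1%) were called in the complemented lines, the shares of the same sign were 98.7% and 96.4%, and 879 and 807 genes were called in both (9.24% of all genes tested rose and 7.85% fell). The medians in the complemented lines were then 0.14 and -0.12.

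The medians of the G2 and mitosis, p53 and G1/S lists had the same sign in each line. Whether a list's median differed between lines was not tested. That of the NF-κB targets was 0.12 in vector, 0.46 in TXNL1-WT, 0.13 in TXNL1-DR-RD and 0.12 in TXNL1-SxxS cells. For the immediate early genes it was 0.16, 0.39, 0.29 and 0.06. Over the complemented lines without H2O2 replicate 2 of TXNL1-WT, the library that stands apart, these 2 medians were 0.13 and 0.21. The median log2 fold change of the G2 and mitosis genes was -0.36 in vector, -0.47 in TXNL1-WT, -0.39 in TXNL1-DR-RD and -0.36 in TXNL1-SxxS cells. The medians of the p53 targets were 0.31, 0.24, 0.20 and 0.20 in the same order, and those of the G1/S genes 0.18, 0.14, 0.15 and 0.16. In the average of the complemented lines 31 of 40 G2 and mitosis genes fell (all genes, 2.38%). There 12 of 29 p53 targets and 15 of 32 G1/S genes rose (all genes, 3.23%). *KIF20A* had log2 fold changes of -0.96, -1.08, -0.92 and -0.88, and *CDC20* had -0.70, -0.32, -0.68 and -0.61, with the smallest fall in the line with the library that stands apart. The median of the peroxide-removing enzymes had no common sign (-0.03, 0.13, -0.06 and 0.02), nor did that of the proteasome subunits (-0.07, 0.13, -0.07 and 0.01). Without H2O2 replicate 2 of TXNL1-WT, these medians over the complemented lines were -0.02 and -0.05. Of 26 enzymes 6 and of 32 subunits 8 were then called lower (all genes, 7.85%), and 0 of either higher (9.24%).

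The difference between the lines was tested itself. The interaction of H2O2 with the vector line against the mean of the 3 complemented lines called 0 genes with edgeR (768 at an unadjusted p under 0.05) and 0 with DESeq2. Against TXNL1-DR-RD it was 0 (539 unadjusted, DESeq2 0) and against TXNL1-SxxS 0 (534 unadjusted, DESeq2 0). The 24 libraries of this fit include H2O2 replicate 2 of TXNL1-WT, the library that stands apart. Without it these 3 tests still called 0 genes in edgeR, with 1120, 892 and 1274 at an unadjusted p under 0.05. Calls of 0 do not show that the responses were equal. Against TXNL1-WT, 93 genes (0.414%) were called in the fit of 24 libraries, 92 of them (0.409%) with the lower response in the vector line. Of these 93, 24 were also called in the vector line itself. Among the 17 that shared the smallest adjusted p (0.0251), 4 were called there, and the 5 with the smallest unadjusted p were not. *GARIN5A* measured 4.46, 8.35 and 7.27 CPM untreated and 5.70, 3.17 and 3.69 CPM with H2O2 in vector cells, and 2.49, 2.64 and 2.76 CPM against 6.96, 8.07 and 7.78 CPM in TXNL1-WT cells. The untreated TXNL1-WT libraries were the low ones, and the vector groups overlapped. This count rested on single libraries. With edgeR it was 0 without untreated replicate 2 or 3 of the vector or the TXNL1-WT line, or without H2O2 replicate 2 or 3 of the vector line. It was 31 to 35 without untreated replicate 1 of TXNL1-WT or TXNL1-SxxS, untreated replicate 2 of TXNL1-DR-RD or H2O2 replicate 1 of TXNL1-DR-RD. Leaving out H2O2 replicate 1, 2 or 3 of TXNL1-WT gave 461, 163 and 336.

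**Figure D5:**
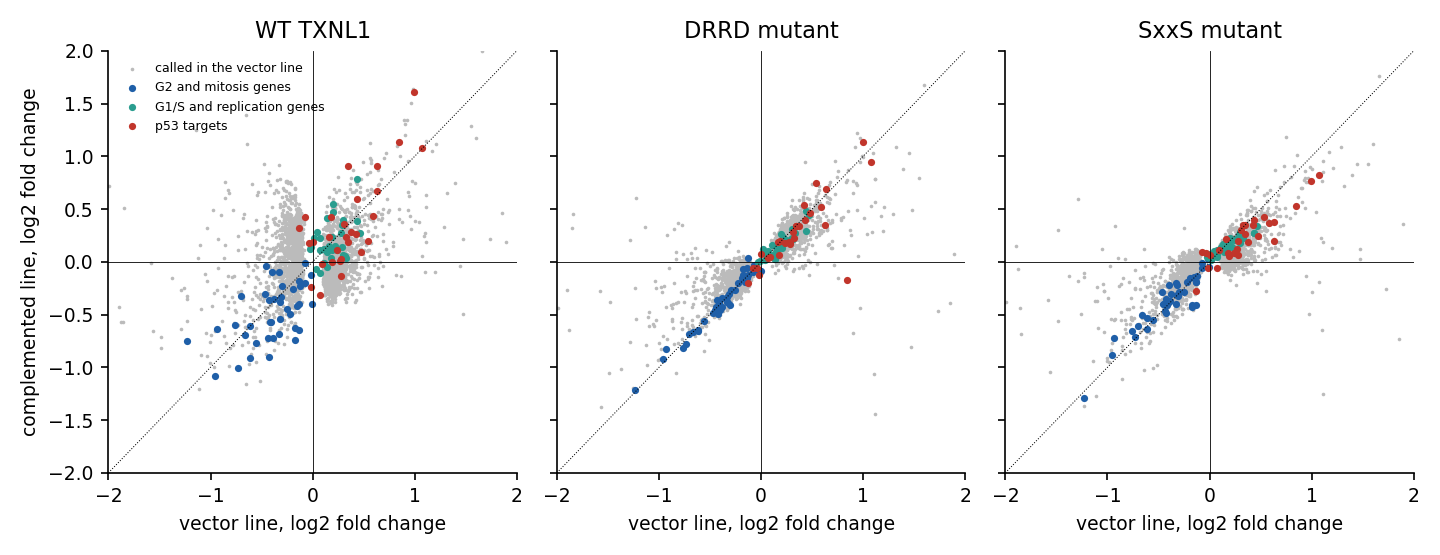
Log2 fold change with H2O2 in each complemented line (y axis) against that in the vector line (x axis) for genes called in the vector line (grey) and for 3 gene lists (colors), with a dotted line of equality. Most points share the sign of the vector line for TXNL1-DR-RD and TXNL1-SxxS, many of them nearer to 0 than the dotted line, and scatter widely for TXNL1-WT, whose H2O2 replicate 2 stands apart. Each panel leaves out 19 or 20 genes beyond a log2 change of 2.

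Arsenite, which binds thiols, was given to the same vector line, and H2O2 and arsenite cells differed at 13433 genes (59.7%) in a fit of the 9 vector libraries. The comparisons of both oxidants with untreated cells share the untreated libraries, so their values are set side by side and not correlated. *HMOX1* had a log2 fold change of 0.53 with H2O2 and 2.21 with arsenite, *DNAJB1* -0.18 and 3.67, and *FOS* 0.75 and 8.28. *HMOX1*, *DNAJB1* and *FOS* were all lower with H2O2 than with arsenite, by 1.68 to 7.53 on the log2 scale. *KIF20A* had -0.96 with H2O2 and -0.09 with arsenite, *PSRC1* -0.93 and 0.34, and *PIF1* -1.23 and 2.09. Of the G2 and mitosis genes 26 of 40 were lower with H2O2 than with arsenite and 11 higher (all genes, 30.7% and 29%). *CDKN1A* had 1.07 and 0.80, *PHLDA3* 0.99 and -0.82, *MDM2* 0.28 and -0.88, and *PCNA* 0.28 and -1.05. Of the G1/S genes 23 of 32 were higher with H2O2 than with arsenite, and of the proteasome subunits 29 of 32 were lower. *TXNL1* RNA had 0.03 with H2O2 and 1.15 with arsenite.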

How the data were processed

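Messenger RNA libraries were made by a provider with a strand-specific kit and sequenced in 100-bp paired reads, per the study's methods and labels. The authors aligned the reads to GRCh38 and deposited raw counts per gene for 61587 genes in 36 libraries, without normalization. The counting tool, its use of strand and the annotation release are not given in the sources used here. The submitters' processing notes name DESeq2.

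Gene IDs were matched to GENCODE 44 for 61369 genes (56987 in the same version), and 12801 tested genes (57.1%) overlap an exon of another gene. A gene was tested if its counts in the 3 untreated libraries of the vector line summed to at least 10, the filter of the study. The 6 libraries were fitted with edgeR 4.0.16 (TMM scaling, robust quasi-likelihood F-test, R 4.3.3, limma 3.58.1), and p-values were adjusted by Benjamini-Hochberg over all tested genes at a threshold of 0.05. The complemented lines were fitted over 18 libraries, interactions over 24, and arsenite over the 9 vector libraries. CPM are scaled by TMM within each fit. No library was dropped or imputed in these fits. DESeq2 1.42.0, other scalings and filters, other sets of libraries, offsets for GC content and length, halved counts, a replicate block and leaving out each library were alternatives. The scripts were tested on simulated counts. No replicate pair of the vector line agreed within sampling noise (chi-square per degree of freedom 3.18 to 6.49), so none was counted as 1 library.

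The gene lists, the libraries compared and the tests were chosen with earlier results of these data known. Genes were named by rule, namely the 15 largest rises and falls among called genes whose libraries do not overlap and whose higher group has a mean of at least 2 CPM, the 10 smallest p, the 5 smallest adjusted p of each interaction (ties by unadjusted p), *TXNL1* and *PITHD1*, and 2 to 4 members of each list by size of change and then by level. Further list members were named after their values were seen. Motifs were searched in the 250 bases before RefSeq starts. Precision is limited by 3 libraries per group. Some items are not reported here.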

Additional observations from a re-analysis of the deposited data

Results flagged for a closer look

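The response to H2O2 differed between vector and TXNL1-WT cells by a test of the difference itself, edgeR's interaction with Benjamini-Hochberg adjustment, for 93 of the genes tested. 17 genes shared the smallest adjusted p (0.0251), and the 5 of these with the smallest unadjusted p were *UTS2R*, with a vector minus TXNL1-WT difference in log2 response of -0.81, *CBR1-AS1* (-0.87), *ENSG00000289001* (-0.90), *GARIN5A* (-2.21) and *REX1BD* (-1.77). *CBR1-AS1* and *ENSG00000289001* overlap each other and *CBR1*, so they may count the same reads. None of these 5 genes was called for the difference between vector cells and the mean of the 3 complemented lines (adjusted p = 0.946 each).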

How the results depend on the processing

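The 2808 calls of the vector comparison became 303 with all 36 libraries in the fit, 1254 among genes whose exons overlap no other gene (fewer genes were tested), 75 against a fold change of 1.2 and 919 without H2O2 replicates 2 and 3, in a fit of the other 7 vector libraries chosen after seeing the data. That fit has 1 H2O2 library, which is assumed to vary like the untreated and arsenite ones. Over all alternative settings, this fit among them, the median log2 fold change of the G2 and mitosis list was -0.39 to -0.34. It was 0.17 to 0.19 for G1/S, 0.24 to 0.33 for p53 and 0.17 to 0.22 for ATF4 pathway genes. Leaving out 1 library at a time gave 1632 to 2758 calls. The other settings gave 2219 to 3433. Scaling by total counts put 55.4% of calls among the rises, against 51% here, and with the length offset 4 called genes changed sign. For the complemented lines, the 1262 calls became 1940 with DESeq2, 783 with no filter on low counts, 1929 with all 36 libraries and 3844 without H2O2 replicate 2 of TXNL1-WT, and ranged from 885 to 3844 without single libraries. The 93 calls of the vector against TXNL1-WT became 305 with DESeq2, 163 without that library and 0 to 461 without single libraries. The comparison with arsenite ranged from 12405 to 13426 without single libraries. The cause of these changes was not tested.

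Replicate numbers did not pair the libraries, with correlations of same-numbered deviations of 0.03, -0.04 and 0.04 over 10816 genes. With the replicate block 2760 genes were called in the vector comparison (2963 with a GC offset too) and 19 for the vector against TXNL1-WT.

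Of single genes, these took the opposite sign, none of them called in the 6-library fit. Without single libraries *TXNL1* ranged from -0.017 to 0.055 and *COL3A1* from -0.10 to 0.20. *TXNL1* measured -0.030 with the length offset, and without H2O2 replicates 2 and 3 *COL3A1* measured -0.22, *COL1A1* -0.022, *H2BC12* -0.0013, *CBR1-AS1* 0.020 and *ENSG00000289001* 0.011. Depth limits genes under 1 CPM, of which 1.15% were called.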
